A study of Mus musculus with 18 samples.

Results

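Fatty acid oxidation, ketone body, butyrate uptake and PPAR target genes were followed through the day in the mouse distal colon. The set holds 33 genes, chosen by name. Each was read from the probe set with its gene symbol in the platform annotation, the one with the highest mean where there were several. Of the 33 genes, 31 were among the 12870 genes tested, out of 18193 genes with a probe set of their own. Angptl4, a secreted inhibitor of lipoprotein lipase, stayed below the filter on dim probe sets, with a mean log2 signal of 6.89 against a limit of 7.10. Acsl1, which activates long-chain fatty acids, had no probe set listed under its symbol alone and was not analysed here.

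The study asked which colon transcripts follow a daily rhythm. Mice ate freely and lived for 2 weeks under a cycle of 12 h light (from clock hour 7) and 12 h dark (from clock hour 19). Distal colon was taken at 8am, 12pm, 4pm (1, 5 and 9 h after lights on), 8pm, 12am and 4am (13, 17 and 21 h), and total RNA was hybridised to Affymetrix mouse genome arrays, 3 per time, lettered a to c. The mice carried no named mutation or treatment, and strain, sex and age are not given in the sources used here; nor is it stated whether the 3 samples of a time are 3 animals, so the p-values reflect only how far these samples spread.

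Colonocytes, the absorptive cells of the colon surface, burn butyrate, a short-chain fatty acid that gut bacteria make from fibre. Butyrate enters through the transporters encoded by Slc16a1 and Slc5a8 and is broken down in mitochondria by beta oxidation, which shortens an acyl-CoA chain in repeated rounds of dehydrogenation, hydration, dehydrogenation and cleavage. Long-chain fatty acids need the carnitine shuttle to reach the same enzymes. PPAR alpha, the nuclear receptor encoded by Ppara, activates many of these genes in liver.

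All values below are log2(signal + 16) unless a fold is named, and a level is compared only within one probe set, not between genes. Surface colonocyte markers (8 of 8), goblet cell markers (6 of 6) and crypt and dividing cell markers (6 of 6) were all among the genes tested. So were those of smooth muscle (7 of 7) and endothelium (5 of 5), other parts of the wall, while 2 of 7 small intestine enterocyte markers were. Median signals per array lay between 127 and 252. The Gapdh control's 3′ probe set over its 5′ one, a measure of RNA or cRNA length, gave a ratio of 34.3 in 4pm b, 36.0 in 4am a and 18.2 in 4am b. It was 2.33 in 4pm c and between 0.746 and 1.12 in the other 14 arrays. Results that rest on 4pm b, 4am a and 4am b, called the 3 high-ratio arrays, are given with and without them, although 4am is then 1 array, assumed to vary like the other times.

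Promoter sequence was available for 30 of the 33 genes (not Acaa2, Angptl4 and Acat1), in 32 windows running from 250 bases before to 50 bases after the start of the gene (RefSeq, GRCm38.p6). Each window was searched on both strands for AGGTCA, the core motif of PPARs and many other nuclear receptors, for AGGTCA followed by any 1 base and AGGTCA again, the repeat bound by PPAR with RXR, and for CACGTG, the E-box bound by the clock activators and by other factors. AGGTCA was present in 5 of the 30 genes (16.7%), namely Cpt1a, Acadm, Acadvl, Plin2 and Cd36, and in 16.3% of all 32851 windows. CACGTG was present in 2 of 30 (6.67%), Plin2 and Slc16a1, and in 7.15% of all windows. The repeat, which contains AGGTCA, was in 0 of 30 and in 0.0396% of all windows. The shares of AGGTCA and CACGTG were close to those of all promoters. The 4 stretches shown belong to genes described below as higher at 12pm than at 12am in every array whose window held a motif. Each gives 250 bases before and 20 after the start, read 5′ to 3′ on the strand of the gene, with the motif in capitals (TGACCT is AGGTCA on the other strand).
Cpt1a, chr19:3323051-3323320, plus strand: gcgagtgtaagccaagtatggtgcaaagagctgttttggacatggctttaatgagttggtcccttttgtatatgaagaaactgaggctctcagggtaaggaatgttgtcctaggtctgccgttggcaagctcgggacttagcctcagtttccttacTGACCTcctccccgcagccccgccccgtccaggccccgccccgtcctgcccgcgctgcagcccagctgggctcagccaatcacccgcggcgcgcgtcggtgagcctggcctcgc
Acadm, chr3:153944624-153944893, minus strand: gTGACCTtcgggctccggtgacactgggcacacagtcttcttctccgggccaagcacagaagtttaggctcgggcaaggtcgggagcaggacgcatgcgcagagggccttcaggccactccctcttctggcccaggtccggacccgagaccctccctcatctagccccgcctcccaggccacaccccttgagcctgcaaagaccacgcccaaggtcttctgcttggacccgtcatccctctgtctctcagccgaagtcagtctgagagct
Plin2, chr4:86670040-86670309, minus strand: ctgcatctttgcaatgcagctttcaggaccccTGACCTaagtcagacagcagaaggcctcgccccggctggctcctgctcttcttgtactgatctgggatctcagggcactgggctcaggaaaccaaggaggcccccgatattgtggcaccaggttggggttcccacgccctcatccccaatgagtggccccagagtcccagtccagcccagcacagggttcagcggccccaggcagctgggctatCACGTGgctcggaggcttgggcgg
Slc16a1, chr3:104638414-104638683, plus strand: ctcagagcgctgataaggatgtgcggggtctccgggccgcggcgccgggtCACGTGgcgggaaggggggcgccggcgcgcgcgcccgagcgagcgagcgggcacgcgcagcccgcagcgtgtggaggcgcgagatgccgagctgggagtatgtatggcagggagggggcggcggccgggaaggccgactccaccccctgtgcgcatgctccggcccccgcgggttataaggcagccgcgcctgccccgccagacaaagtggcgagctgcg

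The first question was whether any of the genes followed a 24 h rhythm. None of the 31 passed in the limma cosine fit, where 5 of all 12870 genes (0.0389%) did, and adjusted p lay between 0.948 and 0.999. At an unadjusted p under 0.05 there was 1 of 31 (3.23%), against 3.95% of all genes. The gene was Cpt1a, which encodes the carnitine palmitoyltransferase of the outer mitochondrial membrane, the main control point for entry of long-chain fatty acids. Read from 1 of its 3 kept probe sets, its amplitude was 0.25 ± 0.08 (SE), or 1.42-fold between peak and trough. The curve peaked at 6.30 h of light. Amplitudes ran between 0.01 ± 0.09 for Eci1, an enoyl-CoA isomerase for unsaturated chains, and 0.63 ± 0.26 for Ppara. Their median was 0.23, beside 0.19 over all genes. The fit for Ppara includes 4.97 in 4am a and 7.31 in 4am b, against 7.90 to 9.11 in the 15 arrays without a high ratio. On the 15 other arrays the medians were 0.16 and 0.15, and again 0 of 31 passed (0.0389% of all genes), while 4 of 31 (12.9%) stood at an unadjusted p under 0.05, beside 5.34% of all genes. Those were Acadl (peak at 6.29 h), Acadm (3.96 h), Slc25a20 (13.6 h) and Cpt1a (5.18 h). With all 18 arrays 4 of 12 core clock genes passed, among them Dbp, a direct clock output, with an amplitude of 2.16 ± 0.19 (adjusted p = 1.683e-05).

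**Figure D1:**
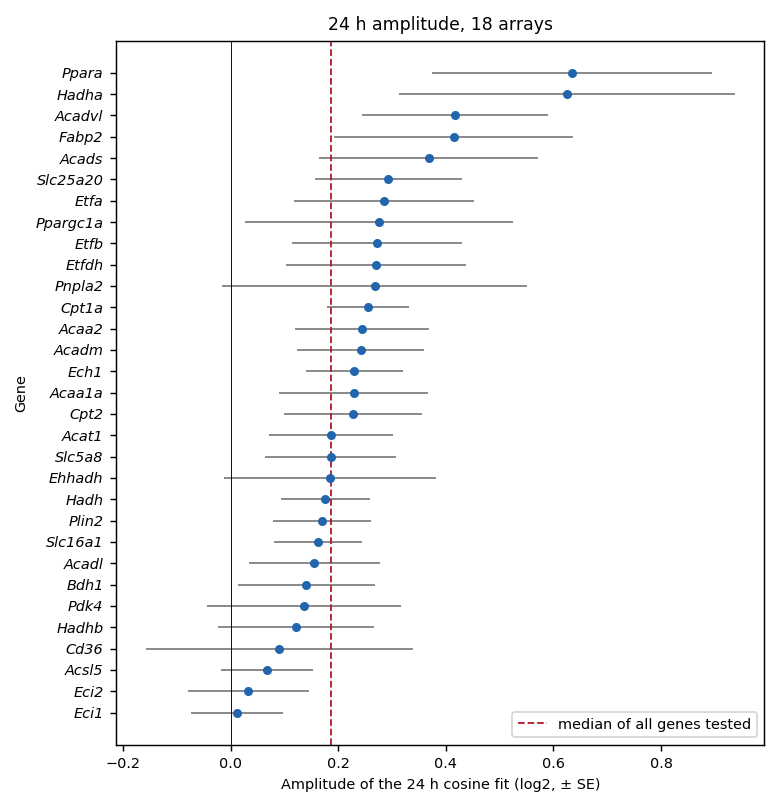
Amplitude of the 24 h cosine fit (log2, ± SE) for the 31 genes over 18 arrays, ordered by size, with the median of all 12870 genes (0.19) as a dashed line. The values run between 0.01 for Eci1 and 0.63 for Ppara, and none passed the test. For Ppara the fit includes low values in 4am a (4.97) and 4am b (7.31).

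**Figure D2:**
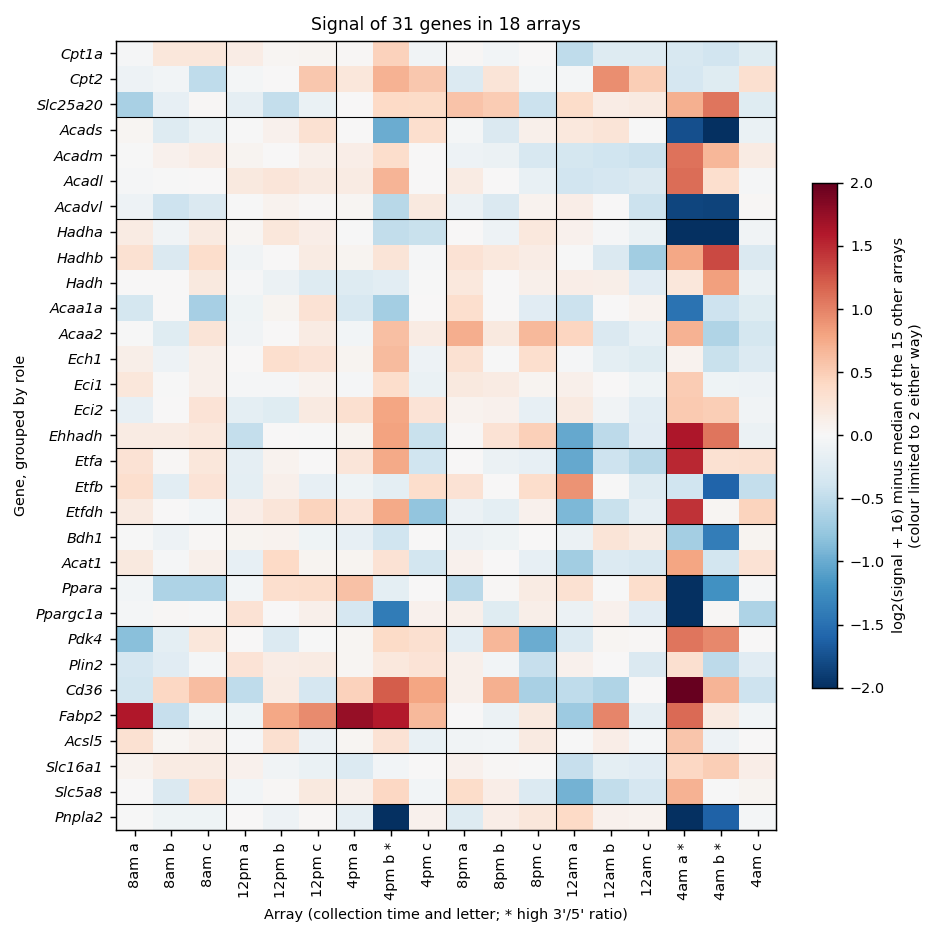
Log2 signal of the 31 genes (rows, grouped by role) in the 18 arrays (columns, in order of collection time), as the deviation from the median of the 15 arrays other than those marked with an asterisk. The strong colours gather in 4pm b, 4am a and 4am b, the 3 high-ratio arrays, where Hadha, Acads, Acadvl and Pnpla2 are low and Ehhadh, Etfa and Cd36 are high.

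When the 6 time means were compared without assuming a curve, 1 of the 31 genes passed (3.23%), against 17% of all genes. It was Acadm, the medium-chain acyl-CoA dehydrogenase, which takes the first step of beta oxidation on chains of middle length (probe set 1415984_at). In the light Acadm read 12.01, 12.11 and 12.18 (8am), 12.08, 12.02 and 12.12 (12pm) and 12.15, 12.37 and 12.03 (4pm). In the dark it read 11.91, 11.90 and 11.70 (8pm), 11.67, 11.62 and 11.60 (12am) and 13.11, 12.69 and 12.19 (4am). The 3 arrays of 12am were the lowest of all 18, and the 2 highest were 4am a and 4am b. The means of the highest and lowest time differed by 1.03 (limma adjusted p = 0.0261). On the 15 other arrays that distance was 0.56 (adjusted p = 0.0280), and Etfa (0.99, adjusted p = 0.0239) and Acadl (0.54, adjusted p = 0.0459) passed as well, 3 of 31 against 22.8% of all genes. Etfa encodes a subunit of the flavoprotein that takes electrons from the acyl-CoA dehydrogenases, and Acadl the long-chain dehydrogenase. The count of 1 became 18 without 4am c (53.9% of all genes), 3 without 4pm b (18.4%) and 2 without 4pm c (17.3%). It became 0 without 8am c (6.15%), 12am b (8.31%) or 12am c (8.04%).

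Over all 18 arrays, 12am was the time with the lowest mean for 13 of the 31 genes (41.9%, against 20.9% of all genes). Without the 3 high-ratio arrays it was so for 10 (32.3%, against 20.5% of all genes): Cpt1a, Acadm, Acadl, Hadhb, Ehhadh, Etfa, Etfdh, Acat1, Slc16a1 and Slc5a8. These include the carnitine entry enzyme, a pair of dehydrogenases, electron transfer genes and both butyrate transporters. The other frequent time was 4am. With all 18 arrays 4am had the highest mean for 13 of 31 (41.9%, against 26.9% of all genes) and the lowest for 11 (35.5%, against 32% of all genes). Without the 3 high-ratio arrays 4am, then 1 array, had the lowest value for 10 (32.3%, against 16.1% of all genes), among them Acaa2, Acads, Etfb and Hadh. These counts are a description of the means.

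**Figure D3:**
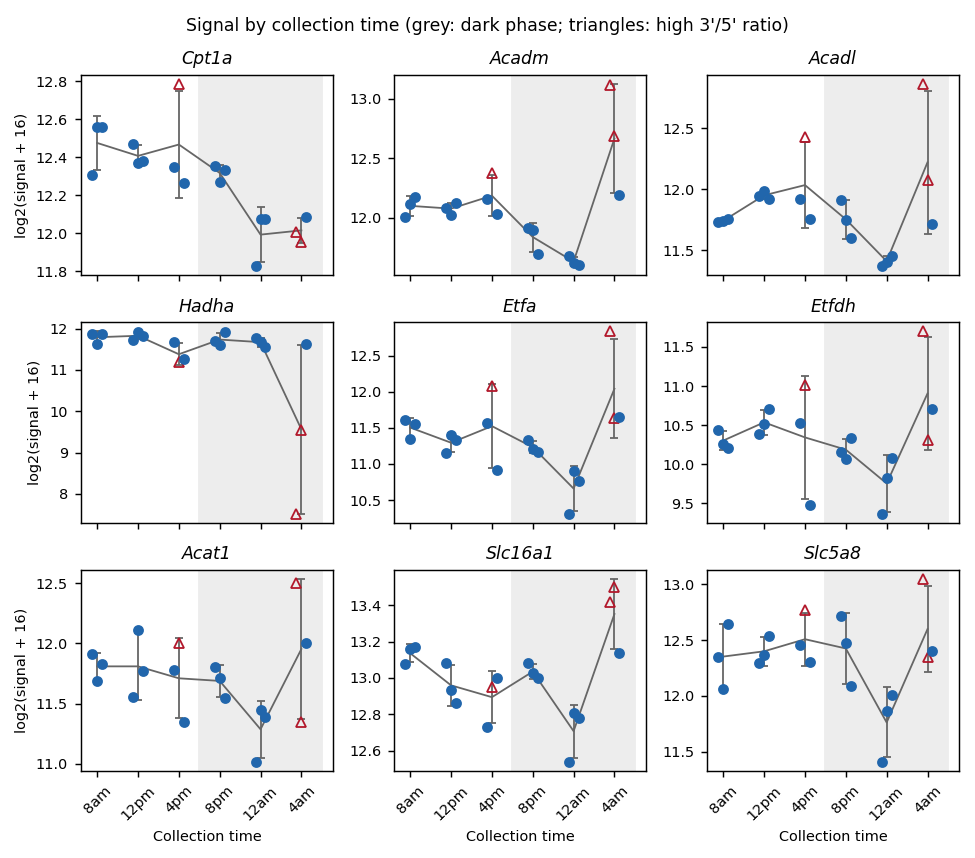
Log2 signal by collection time for 9 genes, with every array as a point, the mean of each time joined by a line and bars of 1 SD (n = 3). Triangles are the 3 high-ratio arrays and the grey area is the dark phase. The 12am points are low for Acadm, Acadl, Etfa, Etfdh, Acat1, Slc16a1 and Slc5a8, and Hadha stands far below its other values in 4am a and 4am b.

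Light was next set against dark. In limma 0 of 31 genes passed (0% of all 12870 genes), and 2 of 31 (6.45%) had an unadjusted p under 0.05, beside 6.21% of all genes. The median light minus dark difference was 0.11 over the 31 genes and 0.01 over all genes. Of the 31 differences 23 were above 0, a count not taken over all genes. Cpt1a differed by 0.34 ± 0.10 (SE; adjusted p = 0.704). Its 9 arrays in the light lay between 12.27 and 12.79, and those in the dark between 11.83 and 12.35, so that the groups overlapped. Its other kept probe sets, both of a kind that may also bind other transcripts, overlapped as well. There the light arrays lay between 9.48 and 12.12 and between 8.14 and 9.69. The dark ones lay between 9.72 and 11.63 and between 8.21 and 10.47. The values 12.12, 11.63 and 10.47 came from 4pm b, 4am a and 4am b, in that order. Without the 3 high-ratio arrays the light arrays lay between 9.48 and 10.63 and between 8.14 and 9.69. The dark ones then lay between 9.72 and 10.84 and between 8.21 and 9.73. Slc25a20, the carrier that exchanges acylcarnitine for carnitine across the inner membrane, had a difference of -0.41 ± 0.18 (adjusted p = 0.749). In its second kept probe set the groups overlapped, at 10.67 to 11.72 in the light against 10.45 to 11.61 in the dark. The 11.72 was in 4pm b and the 10.45 in 4am a. Without the 3 high-ratio arrays the difference was 0.27 ± 0.08 for Cpt1a (adjusted p = 0.708) and -0.18 ± 0.16 for Slc25a20 (adjusted p = 0.967). For 28 of 31 genes the 95% interval of the difference lay within 2-fold either way. The exceptions were Hadha (-0.05 to 1.40), Ppara (-0.21 to 1.15) and Fabp2 (-0.04 to 1.21). On the 15 other arrays the light minus dark difference was 0.02 ± 0.10 for Hadha, 0.00 ± 0.17 for Ppara and 0.70 ± 0.33 for Fabp2. On those arrays 0 of 31 passed (0.0155% of all genes) and 5 of 31 (16.1%) stood at an unadjusted p under 0.05, beside 5.37% of all genes. Without 4am c 5 of 31 passed, against 7.42% of all genes.

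Midday and midnight lie 12 h apart, and neither time holds a high-ratio array. In limma 0 of 31 genes passed at 12pm minus 12am (0% of all genes), and 5 (16.1%) had an unadjusted p under 0.05, all higher at 12pm, beside 8.11% of all genes. With the spread estimated without the 3 high-ratio arrays 0 of 31 passed (0.124% of all genes) and 9 (29.0%) had such a p, 8 of them higher at 12pm, beside 17.1% of all genes. The lowest adjusted p was 0.0823, for Acadl. With array quality weights on all 18 arrays 2 of 31 passed (3.36% of all genes), Acadl (0.53, adjusted p = 0.0364) and Acadm (0.45, adjusted p = 0.0386). In 10 of 31 genes (32.3%) all 12pm arrays lay above all 12am arrays, a pattern found in 11% of all genes. The reverse held for 2 of 31, Slc25a20 and Pnpla2 (6.45%, against 10.3% of all genes). These counts were added after the data had been seen and carry no test.

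In the carnitine shuttle, Cpt1a (probe set 1460409_at) had 12.47, 12.37 and 12.38 at 12pm, against 11.83, 12.08 and 12.08 at 12am. The lowest 12pm array was above the highest 12am array, and the difference was 0.41 ± 0.17 (SE) or 1.33-fold (adjusted p = 0.552). Its other kept probe sets differed by 0.26 and 0.16 and overlapped. Slc25a20 had 11.72, 11.42 and 11.76 at 12pm, against 12.26, 12.04 and 12.07 at 12am, all lower at 12pm, while its second probe set differed by 0.24 the other way and overlapped. Cpt2, the carnitine acyltransferase of the inner membrane, had 10.27, 10.30 and 10.84 at 12pm, against 10.26, 11.23 and 10.80 at 12am, which overlapped.

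Among the acyl-CoA dehydrogenases, Acadl (probe set 1448987_at) had 11.94, 11.99 and 11.92 at 12pm, against 11.37, 11.41 and 11.45 at 12am. The arrays of each time lay close together and the groups stood apart, with a difference of 0.54 ± 0.24 (1.46-fold, adjusted p = 0.578). Acadm, given above, differed by 0.44 ± 0.20 (1.36-fold, adjusted p = 0.578). Acads and Acadvl, the short-chain and very-long-chain enzymes, differed by -0.03 and 0.12 and overlapped.

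In the later steps, Ech1, an isomerase for unsaturated chains, had 11.31, 11.64 and 11.57 at 12pm, against 11.28, 11.11 and 11.06 at 12am. The groups were barely separated, and the difference was 0.35 ± 0.21 (1.28-fold, adjusted p = 0.698). Hadha and Hadhb, the subunits of the trifunctional protein that completes the cycle on long chains, differed by 0.16 and 0.36 and overlapped. In the probe sets used, Hadh, Acaa1a, Acaa2, Eci1, Eci2 and Ehhadh overlapped too, with differences between -0.14 and 0.43. Other kept probe sets of these genes did not all overlap. Of the further 2 for Hadhb, 1 had all 12pm arrays above all 12am arrays (0.49) and 1 overlapped (0.42). Hadh, whose probe set used differed by -0.14, had 1 further set wholly above (0.27) and 1 that overlapped (-0.07), and Acaa2 had 1 wholly above (0.95) and 1 that overlapped (0.32).

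Electron transfer and ketone body genes were also among those separated. Etfdh encodes the oxidoreductase that hands the electrons of beta oxidation to ubiquinone (probe set 1451084_at). It had 10.39, 10.51 and 10.71 at 12pm, against 9.36, 9.82 and 10.08 at 12am, a difference of 0.78 ± 0.36 (1.72-fold, adjusted p = 0.595). Etfa had 11.15, 11.40 and 11.34 at 12pm, against 10.31, 10.90 and 10.77 at 12am (1.55-fold, adjusted p = 0.617). Both were without overlap, whereas Etfb, the partner subunit of Etfa, differed by -0.29 and overlapped. Acat1, the mitochondrial acetoacetyl-CoA thiolase, had 11.55, 12.11 and 11.77 at 12pm, against 11.02, 11.45 and 11.39 at 12am (1.44-fold, adjusted p = 0.632). Of its other kept probe sets, 1 was also separated (0.28) and 1 differed by -0.03. Bdh1, which interconverts the main ketone bodies, differed by -0.09 and overlapped.

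Both butyrate transporters were among the separated genes. Slc5a8, a sodium-coupled monocarboxylate transporter (probe set 1425606_at), had 12.29, 12.37 and 12.54 at 12pm, against 11.41, 11.87 and 12.01 at 12am. Its difference of 0.64 ± 0.24 (1.56-fold) had the lowest adjusted p of the 31 genes in the fit of 18 arrays, 0.536. Slc16a1, the proton-coupled monocarboxylate transporter MCT1 (probe set 1415802_at), had 13.08, 12.93 and 12.87 at 12pm, against 12.54, 12.81 and 12.78 at 12am. The gap between its groups was small, and the difference was 0.25 ± 0.15 (1.19-fold, adjusted p = 0.692). Plin2, a lipid droplet coat protein and PPAR target, had 12.65, 12.52 and 12.53 at 12pm, against 12.46, 12.37 and 12.08 at 12am (1.20-fold, adjusted p = 0.791). Pnpla2, the lipase that opens the breakdown of droplet fat, had 11.06, 10.96 and 11.09 at 12pm, against 11.46, 11.14 and 11.13 at 12am. The regulators Ppara and Ppargc1a, a coactivator of mitochondrial genes, differed by -0.01 and 0.22 in the probe sets used, which overlapped. The 4 other kept probe sets of Ppargc1a differed by 0.55 to 0.82, 3 of them with all 12pm arrays above all 12am arrays. Those of Ppara differed by -0.50 and -0.80 and overlapped. In Pdk4, Cd36, Fabp2 and Acsl5 the groups overlapped as well.

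**Figure D4:**
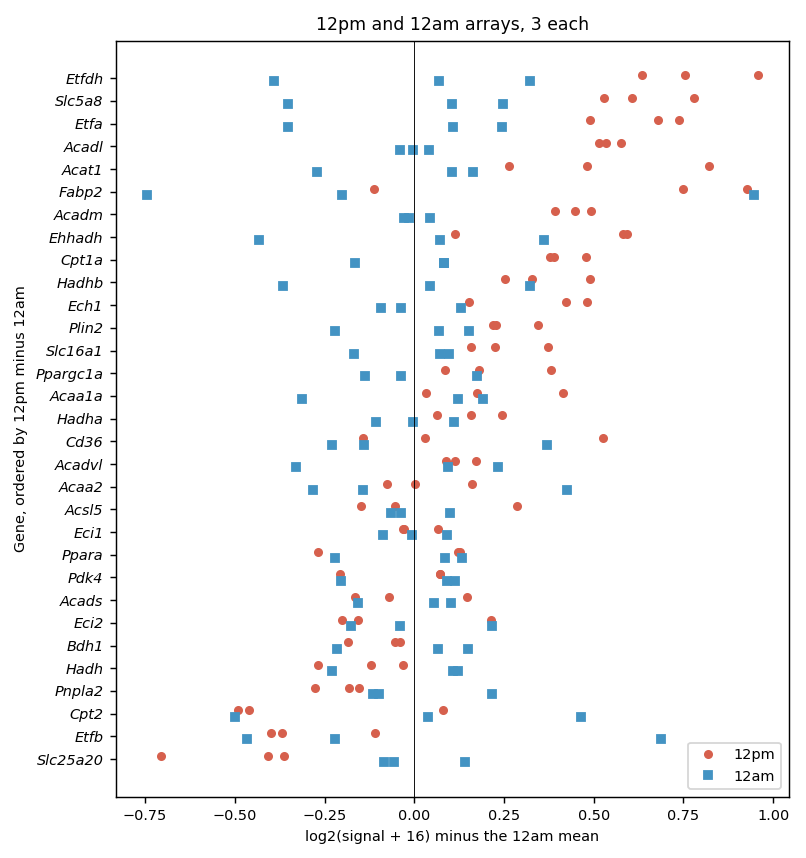
Log2 signal of the 3 arrays at 12pm (circles) and the 3 at 12am (squares) for each of the 31 genes, minus the 12am mean, ordered by the difference of the means. In 10 genes all circles lie to the right of all squares, with the largest difference for Etfdh (0.78), and in Slc25a20 and Pnpla2 all lie to the left.

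Cell type markers differed between the same arrays. The summed signal of 6 crypt and dividing cell markers was 4219 to 5708 at 12pm, against 3498 to 4007 at 12am, without overlap. That of 8 surface colonocyte markers was 74324 to 86774 at 12pm, against 82701 to 97671 at 12am, and that of 6 goblet cell markers 77334 to 90874 at 12pm, against 89623 to 112100 at 12am. The 4 adipocyte markers tested, of 8, summed to 3844 to 5459 at 12pm, against 2500 to 3915 at 12am, which overlapped. Their mean log2 level was 9.76 to 10.28 at 12pm, against 9.13 to 9.67 at 12am, without overlap. The 5 endothelial markers likewise overlapped in summed signal, 1546 to 1900 at 12pm against 1488 to 1804 at 12am, but not in mean log2 level, 8.33 to 8.48 at 12pm against 8.01 to 8.27 at 12am. The part of these shifts in the result was not tested. In such bulk tissue fewer cells of a type and less RNA per cell cannot be told apart.

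The other times 12 h apart gave fewer separated genes. At 8am against 8pm, 2 of 31 lay wholly above, Acadm and Etfa (5.63% of all genes), and 0 of 31 wholly below (8.46% of all genes). In limma 0 of 31 passed (0.00777% of all genes), and 0 of 31 had an unadjusted p under 0.05. At 4pm against 4am, Cpt1a and Etfb lay wholly above (5.57% of all genes) and Slc16a1 wholly below (2.27% of all genes). In limma 0 of 31 passed there (0.0466% of all genes), and 9 of 31 (29.0%) had an unadjusted p under 0.05, beside 19.7% of all genes. Without the 3 high-ratio arrays 0 of 31 passed (0% of all genes) and 0 of 31 had such a p, beside 6.21% of all genes. Without 4am c, which leaves 4am with high-ratio arrays alone, 14 of 31 passed (31.8% of all genes).

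When 4pm and 4am together were set against the other 4 times, 8 of 31 genes passed (25.8%, against 24.9% of all genes). Acadm (0.51 ± 0.12, SE), Etfa (0.61 ± 0.19), Cd36 (0.93 ± 0.31), Eci2 (0.41 ± 0.14) and Acadl (0.41 ± 0.15) rose, and Hadha (-1.29 ± 0.37), Pnpla2 (-1.18 ± 0.34) and Acads (-0.79 ± 0.24) fell. Cd36 encodes a fatty acid uptake protein and Eci2 an enoyl-CoA isomerase. Limma adjusted p of the 8 lay between 0.0105 and 0.0488. Without the 3 high-ratio arrays 0 of 31 passed (3.12% of all genes), and 2 of 31 (6.45%) had an unadjusted p under 0.05, beside 20.9% of all genes. With the log2 Gapdh ratio of each array as a covariate it was also 0 of 31 (0.124% of all genes), and Pnpla2 turned to 0.032. The count was 1 without 4pm b (9.19% of all genes), 2 without 4am a (11.3%) and 19 without 4am c (45.5%). It was 5 without 12pm a, 4pm a, 8pm a, 8pm c, 12am b or 4am b (18.8% to 21.9%).

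The 3 high-ratio arrays held the most extreme values of many genes. Hadha (probe set 1452173_at) had 11.20 in 4pm b, 7.53 in 4am a and 9.54 in 4am b, against a lowest value of 11.25, a median of 11.69 and a highest of 11.92 in the other 15 arrays. All 3 lay below the 15, and the means differed 4.88-fold. Pnpla2 had 8.95, 8.04 and 9.45 in the same 3 arrays, against 10.80, 11.06 and 11.46 as lowest, median and highest of the 15. Acads, Acadvl and Bdh1 also had all 3 arrays below the 15, and Acadm, Acadl, Eci2 and Ehhadh, the peroxisomal bifunctional enzyme, had all 3 above. Of the 31 genes, 20 had a higher and 11 a lower mean in the 3 arrays. The median size of the difference was 0.76 over the 31 genes and 0.53 over all genes. Median SD over arrays was 0.42 for the 31 genes with all 18 arrays and 0.23 with 15, beside 0.45 and 0.34 for all genes.

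Probe sets of one gene often differed in direction in these arrays. Among 12 genes with several kept probe sets, 7 had differences of both signs. Acaa2, the mitochondrial ketoacyl-CoA thiolase, ran between -3.69 and 0.14 over 3 probe sets, Ppargc1a between -1.46 and 0.97 over 5, and Cpt1a between -0.04 and 1.38 over 3. Bdh1 was lower in both of its probe sets, by amounts of -3.32 and -0.82. Summed signal of 7 smooth muscle markers was 20990 to 65877 in the 3 arrays, against 47391 to 81858 in the other 15. That of the 4 adipocyte markers was 11069 in 4am a, 4310 in 4pm b and 2812 in 4am b, against 2429 to 5459 in the other 15. Cd36, also made by fat cells, read 10.81, 9.64 and 9.11 in 4am a, 4pm b and 4am b. Acadm, Acadl, Ehhadh, Etfa and Etfdh, like Cd36, had their highest value in 4am a. The summed signal of the 4 lymphocyte markers tested was 1247 to 4586 in the 3 arrays, against 796 to 3314 in the other 15. The part of RNA length and of tissue make-up in these differences was not tested. The probe sets used for Hadhb, Hadh and Acaa1a carry the suffix x, which Affymetrix gives to sets that may also bind other transcripts, so their values are uncertain. Further kept probe sets of Cpt1a, Cpt2, Hadh, Acaa1a and Ppargc1a carry it too. The set used for Acaa2 and the second one of Slc25a20 carry the suffix s. Binding of other transcripts was not checked for any set.

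**Figure D5:**
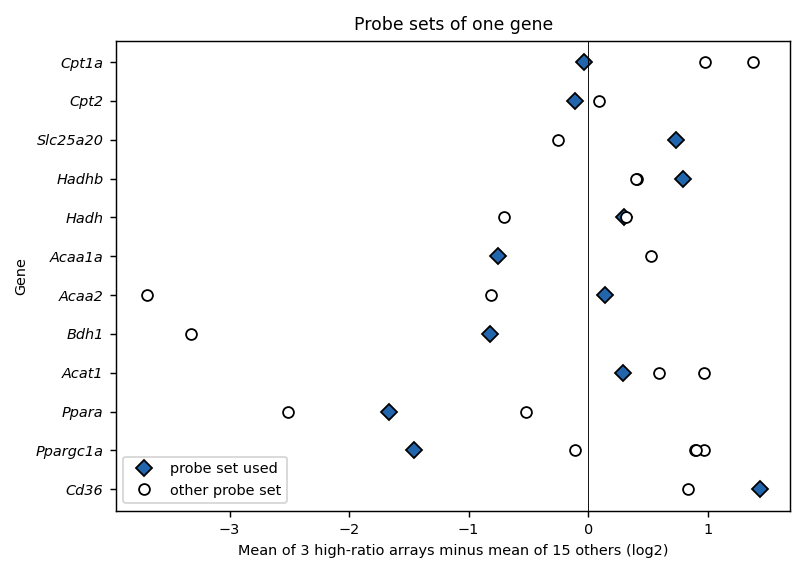
Mean log2 signal of the 3 high-ratio arrays minus that of the other 15 for each kept probe set of the 12 genes with several. Filled diamonds are the probe sets used for the gene and open circles the others. For 7 genes the points lie on both sides of 0, and the widest range is that of Acaa2.

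The remaining sets of times gave few calls. With 8am and 8pm against the other 4 times 0 of 31 passed (16.4% of all genes), and 1 of 31 (3.23%) had an unadjusted p under 0.05, beside 31.8% of all genes. Without 4pm b, 4am a and 4am b 3 passed (32.9% of all genes). Ehhadh rose (0.49 ± 0.14, SE; adjusted p = 0.0174), and Cpt2 (-0.46 ± 0.16, adjusted p = 0.0345) and Ppara (-0.44 ± 0.16, adjusted p = 0.0472) fell. Ppara had 8.47, 7.91 and 7.90 at 8am and 7.99, 8.55 and 8.69 at 8pm, and its other arrays among the 15 lay between 8.47 and 9.11. Its other kept probe sets did not share this fall. In 1449051_at it had 9.20, 8.42 and 8.99 at 8am and 8.77, 9.18 and 9.35 at 8pm, against 6.50 to 8.85 otherwise. In 1457721_at the 8am and 8pm arrays lay between 8.01 and 8.49, within a range of 7.17 to 8.64 over the 15. Without 4am c alone 1 gene passed (26.6% of all genes). With 12pm and 12am against the other 4 times Ehhadh (-0.74 ± 0.23, adjusted p = 0.0400) and Etfa (-0.60 ± 0.19, adjusted p = 0.0442) fell, 2 of 31 against 13.8% of all genes. Without 4pm b, 4am a and 4am b Etfa alone passed (-0.43 ± 0.12, adjusted p = 0.0392; 8.5% of all genes). Leaving out any 1 array ended both calls for 14 of the 18 arrays, left 1 without 4am b and gave 13 without 4am c, against 38.8% of all genes.

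Some genes varied widely among the 15 arrays without a high ratio, also within one time. Fabp2, a fatty acid binding protein best known from the small intestine, had the widest spread, with an SD of 0.73 and values between 8.51 and 10.98. At 8am alone it had 10.83, 8.77 and 9.14. Its light minus dark difference on those 15 arrays, given above, was the largest of the 31 genes. Pdk4, a kinase that holds back glucose oxidation, ran between 6.46 and 8.12 with both its lowest and its highest array at 8pm. Eci1 had the smallest spread of the 31 genes, with an SD of 0.11.

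Other genes of the same pathways were read from 6 lists with 109 genes, of which 80 were tested. None of the 80 was rhythmic over 24 h and none passed at light minus dark or 12pm minus 12am. Between the 6 times 16 of 80 differed in limma (20%, against 17% of all genes). Among them were Acox2, a peroxisomal oxidase (adjusted p = 0.00711), and Slc22a5, the carnitine importer (adjusted p = 0.0189). All 12pm arrays lay above all 12am arrays for 11 of 80 (13.8%, against 11% of all genes and 32.3% of the 31). The 11 included Echs1, the short-chain enoyl-CoA hydratase, Crot, a peroxisomal carnitine acyltransferase, Slc22a5 and Ppard, another PPAR. All lay below for 3 of 80 (3.75%, against 10.3% of all genes), Fabp1, G0s2 and Cyp4b1. At 4pm and 4am together against the other 4 times 9 rose and 14 fell (28.7%, against 24.9% of all genes). Those that fell included Bsg, the chaperone that carries MCT1 to the membrane (-2.95 ± 0.56, limma adjusted p = 0.00500). The contrast holds the 3 high-ratio arrays, and a value for Bsg without them is not given here. Without the 3 high-ratio arrays, which leaves 4am with 1 array, most calls of this contrast were lost, as they were over all genes.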

How the data were processed

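Total RNA of distal colon was measured on 18 Affymetrix arrays, 3 at each of 6 collection times. The deposited values are signal intensities per probe set on a linear scale, made by the authors with GCOS, per the submitters' processing notes; its version is not given in the sources used here. Trimmed by 2% at either end, the mean signal of every array was 500, which points to 1 scaling factor per array, and this scaling was kept. The table gives no detection calls, and the number of arrays limits the precision.

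Control probe sets (64) were set apart. Values were taken as log2(signal + 16), and probe sets with a mean at or above the 40th percentile (7.10) were kept, 27022 of 45037. For each gene with 1 symbol in the platform annotation the probe set of highest mean was used, giving 12870 genes. limma 3.58.1 in R 4.3.3 fitted a 24 h cosine and, separately, 6 time means with contrasts, on all 18 arrays, with eBayes moderation that follows mean level. P-values are two-sided and were adjusted by Benjamini-Hochberg over the 12870 genes, with a threshold of 0.05; "passed" means below it. Fits were run on simulated data with planted effects. That noise was independent between arrays and, for each gene, of the same SD in all, so it held no high-ratio arrays. Its acceptance limits were set after a first run had been seen.

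The genes, the other lists and the cell type markers were chosen with earlier results of these data known. Every gene of the set is accounted for. From other lists the genes with the lowest adjusted p were named by rule, at most 3 per list and comparison. Echs1, Crot, Ppard, Fabp1, G0s2, Cyp4b1 and the counts of separated groups were chosen after values had been seen. Alternatives changed the added constant, the normalization, the filter, the probe set, the moderation, the curve and the arrays.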

Additional observations from a re-analysis of the deposited data

How the results depend on the processing

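Of the 31 genes the count that passed in limma as rhythmic over 24 h was 0 in all alternatives run, and so was that of 8am minus 8pm. Over all genes these shares went up to 0.225% and 2.22%, each with array quality weights. Between the 6 times 1 gene passed (17% of all genes). The count was 2 with a constant of 64 (18.8% of all genes) and with quantile normalization (15.2%). It was also 2 with the mean over all kept probe sets (13.9%). It was 23 with array quality weights, where 69.7% of all genes passed, and 0 with the log2 Gapdh ratio as a covariate (13.7%). Counts without the 3 high-ratio arrays are given above. Leaving out 1 array gave 0 to 18, the 18 without 4am c (53.9% of all genes). Light minus dark went to 7 of 31 with array weights (15.1% of all genes). With 1 array left out it was 0 to 5 (at most 7.42%). For 12pm minus 12am the count was 2 with weights (3.36%). For 4pm minus 4am it was 12 with weights (25.4%) and 0 to 14 with 1 array left out (at most 31.8%). For 4pm and 4am against the other times the 8 became 0 with the covariate (0.124% of all genes). With 1 array left out they became 1 to 19 (9.19% of all genes without 4pm b and 45.5% without 4am c). For 8am and 8pm against the others the count was 1 with quantile normalization (14% of all genes) and 5 with weights (36.9%). With 1 array left out it was 0 to 1 (at most 26.6%). For 12pm and 12am against the others 2 passed. A filter at the 60th percentile left 1 (10.4% of all genes), and so did mean probe sets (10.7%) and the replicate block (13.9%). The count was 16 with weights (43.3%) and 0 with the covariate (3.23%). With 1 array left out it was 0 to 13 (at most 38.8%). With 1 array of 12pm or 12am left out, the genes separated between these times numbered 10 to 13 above and 2 to 4 below. Leaving out an array cannot undo a separation, so these counts could only stay or rise and are no check of it. With mean probe sets 1 gene lay below. The cause of the other changes in these counts was not tested.

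Replicate letters did not pair the arrays: deviations from the time means had a mean correlation of -0.01 between arrays of the same letter (45 pairs) and 0.01 between arrays of different letters (90 pairs). With the replicate block 1 gene differed between the 6 times (13.8% of all genes) and 0 were rhythmic (0.00777% of all genes). Signs or peaks turned for single genes, of which Pnpla2 had passed with all 18 arrays and no covariate and the others had not. The 24 h peak moved to the opposite side for Hadha without the 3 arrays (amplitude 0.073) and for Hadh with mean probe sets (0.065), and Fabp2 at 12pm minus 12am was -0.027 with weights. At 4pm and 4am against the other times, without the 3 arrays, Slc25a20 was -0.0099, Acadvl 0.18, Hadhb -0.14, Ehhadh -0.073 and Ppara 0.16. With the covariate Acadvl was 0.13, Hadhb -0.091, Ehhadh -0.069, Ppara 0.22 and Pnpla2 0.032, and with mean probe sets Ppargc1a was 0.070.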
